A study of Arabidopsis thaliana with 24 samples.

Results

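The RNAs described here come from 8 loci of the Arabidopsis thaliana chloroplast genome, of 8956 loci in the deposited table. They are the 2 copies each of 23S rRNA (ATCG00950 and ATCG01180), 4.5S rRNA (ATCG00960 and ATCG01170), rpl2 (ATCG00830 and ATCG01310) and rps7 (ATCG00900 and ATCG01240), which lie in the inverted repeat. They were chosen by locus code from results on mean reactivity already obtained from these same samples, so the values below are a description and no test was made of them. The 2 copies of every pair carried identical values in all 16 measurements, 4 measures in 4 conditions, so the 8 loci hold 4 distinct sets of values. Each pair is counted once among the members from here on, while counts and ranks over all loci include both copies.

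Chloroplasts keep their own ribosome of the bacterial type, with 23S, 5S and 4.5S rRNA in the large subunit and 16S rRNA in the small one. The 4.5S rRNA corresponds to the 3′ end of bacterial 23S rRNA and lies next to the 23S gene, with which it is cut from a common precursor. The rpl2 gene encodes a protein of the large subunit that sits close to the peptidyl transferase centre, and rps7 encodes a protein that helps assemble the head of the small subunit. The inverted repeat of the chloroplast genome holds a second copy of each of these genes, and reads from the copies cannot be told apart by sequence alone. In the TAIR10.1 gene table rrn23S and rrn4.5S are listed side by side between trnA and trnR, rpl2 lies beside rpl23, and rps7 lies beside ndhB. Only 1 entry each is given there for rrn23S and rrn4.5S, and 2 each for rpl2 and rps7.

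The study asked how RNA structure in living shoots and roots differs under salt. Wild-type Col-0 plants 24 days old were grown in hydroponic culture, and about 40 plants made up a library. Shoots or roots were treated for 5 min with dimethyl sulfate (DMS) at 0.75%, about 75 mM, or held in the buffer alone. The 4 conditions were roots after 48 h in 100 mM NaCl, roots kept in the original solution, shoots after the same salt treatment and shoots kept in the original solution. Each condition rested on 6 libraries, 3 with DMS and 3 without, which makes 24 libraries in 8 groups. DMS methylates adenines and cytosines whose pairing face is free, reverse transcription stops beside the methyl group, and the stop frequency set against the untreated libraries gives a reactivity. A high reactivity marks a base that was unpaired and not covered by protein. The RNA was taken through 2 rounds of poly(A) selection, per the labels, so the rRNA values stand for the rRNA molecules that passed that selection. The table holds 1 combined value per transcript and condition, so no spread between replicates, standard error or p-value could be had, and a difference is given by its size alone. Tissue identity could not be checked against marker genes, since the table holds reactivities and no abundances. Read depth is unknown.

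Each value summarises many bases of an RNA. The number of bases behind each mean was recovered from the rounding of the deposited summaries as 1382 for 23S rRNA, 31 for 4.5S rRNA, 414 for rpl2 and 241 for rps7. The median over the loci of the table was 706 bases, and 10 loci had 31 bases or fewer. The 4.5S rRNA values thus rest on fewer bases than those of nearly all other loci, while 90.2% of loci had no more bases than 23S rRNA.

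The 2 rRNAs and the 2 mRNAs stood on different sides of the typical locus in shoots, and the rRNAs had lower mean reactivity in salt roots than in control roots. The mean reactivity of 23S rRNA was 0.260 in salt roots and 0.413 in control roots, and 0.206 in salt shoots and 0.223 in control shoots. Its control-root value stood apart from the other 3, and 97.2% of loci had a lower mean there. In control shoots only 7.69% of loci had a lower mean than 23S rRNA, and in salt shoots 8.06%. The mean of 4.5S rRNA was 0.125 in salt roots and 0.243 in control roots, and 0.151 in salt shoots and 0.214 in control shoots. It was the lowest of the members in all 4 conditions, and only 0.782% of loci had a lower mean in salt shoots and 2.26% in salt roots. In control roots 79.8% of loci had a lower mean than 4.5S rRNA.

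The mRNA of rpl2 had a mean reactivity of 0.500 in salt roots and 0.480 in control roots, and 0.398 in salt shoots and 0.319 in control shoots. It was the most reactive member in each condition, with 99.0% of loci below it in salt roots and 82.6% in control shoots. The mRNA of rps7 had 0.478 in salt roots and 0.398 in control roots, and 0.330 in salt shoots and 0.293 in control shoots. It ranked second among the members except in control roots, where 23S rRNA was higher. The medians of all loci were 0.210 in salt roots, 0.198 in control roots, 0.266 in salt shoots and 0.273 in control shoots. Both mRNAs were above the median in every condition, and both rRNAs were below it in both kinds of shoot.

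**Figure D1:**
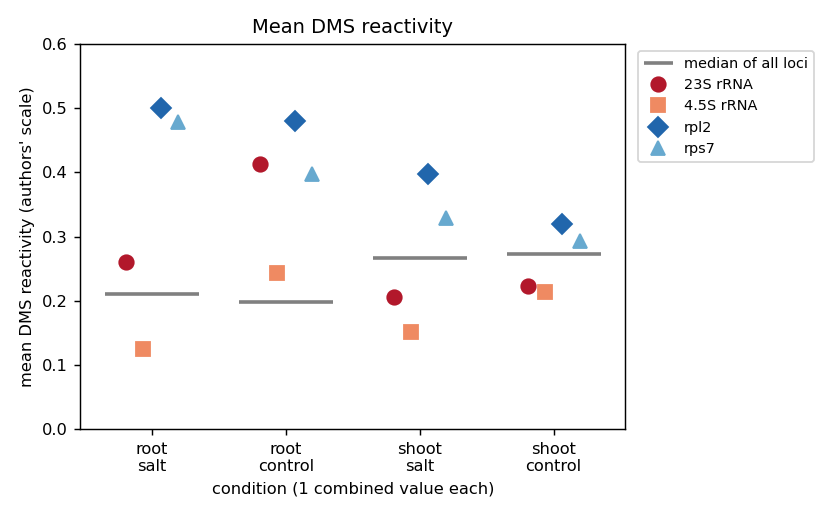
Mean DMS reactivity on the authors' scale (y axis) of the 4 distinct members in the 4 conditions (x axis), each point 1 combined value with no error available. Grey lines are the medians of all loci; rpl2 and rps7 lie above them throughout, and 23S rRNA reaches 0.413 in control roots alone.

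The salt treatment was compared within each tissue as the log2 ratio of mean reactivity, over loci whose mean over both conditions was 0.1 or more. Ratios past 1.5-fold were treated as large. In root the 2 rRNAs were lower with salt by more than that and the 2 mRNAs were not. The log2 ratio of 4.5S rRNA was -0.96, or 0.514 times the control, and only 7 loci in the table had a lower one. The log2 ratio of 23S rRNA was -0.67, or 0.630 times the control, with 25 loci lower, and -0.51 with a pseudocount of 0.1, which is under 1.5-fold. The ratios of rps7 and rpl2 were 0.26 and 0.06, beside a median of 0.09 over all loci. Thus 2 of the 4 members were lower by 1.5-fold and 0 were higher, where 0.427% of all loci were lower and 0.101% higher by that much. The members were picked with these ratios known, so nothing is read from that contrast with the background. These shares stand for 9 loci higher and 38 lower, or 4 and 47 after the median of all loci was subtracted.

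In shoot no member passed 1.5-fold by the mean of all bases. The log2 ratio of 4.5S rRNA was -0.50, or 0.708 times the control, with 54 loci lower, and -0.59 without its highest base, which is just past 1.5-fold. The ratio of 23S rRNA was -0.11, and the median of all loci was -0.03. The mRNA of rpl2 had a ratio of 0.32, with 60 loci higher, and rps7 had 0.17, with 404 loci higher. The count of members past the threshold was 0 in both directions, where 0.0893% of all loci were higher and 0.435% lower by 1.5-fold, which is 8 and 39 loci, or 12 and 30 after subtraction of the median. The 2 mRNAs lay above 0 and the 2 rRNAs below it in both tissues, where 80.1% of all loci lay above 0 in root and 37.3% in shoot. The root ratio of rpl2 was below the median of all loci, at -0.03 after subtraction of that median.

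The gap between an rRNA and an mRNA was wider in root than in shoot in all 4 pairings. These pairings share their members, so they are not separate observations. The 4.5S rRNA ratio minus the rps7 ratio was -1.22 in root and -0.67 in shoot. The 23S rRNA ratio minus the rps7 ratio was -0.93 in root and -0.28 in shoot. Against rpl2 the differences were -1.02 in root and -0.82 in shoot for 4.5S rRNA, and -0.72 in root and -0.43 in shoot for 23S rRNA. The 2 rRNAs also differed from each other, with the 23S ratio above the 4.5S ratio by 0.29 in root and 0.39 in shoot.

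**Figure D2:**
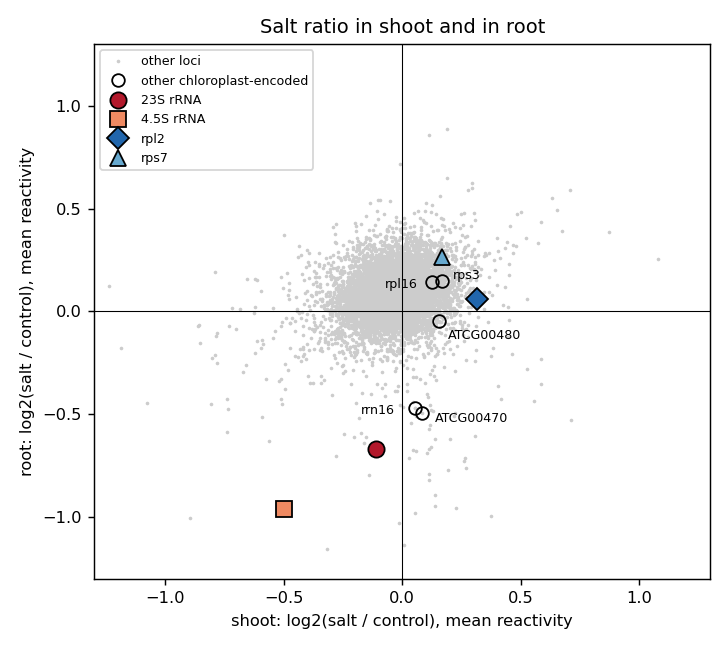
Log2 ratio of mean reactivity, salt over control, in shoot (x axis) and root (y axis). Grey dots are the loci with a ratio in both tissues, overlaid by coloured symbols for the members and open circles for the other chloroplast-encoded RNAs. The 4.5S rRNA lies at -0.50 and -0.96, rps7 at 0.17 and 0.26, and 4 loci fall outside the axes.

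The difference between the tissues was taken by subtracting the shoot log2 ratio of salt over control from that of root. It was -0.55 for 23S rRNA, -0.46 for 4.5S rRNA, -0.26 for rpl2 and 0.09 for rps7, beside a median of 0.13 over all loci. All 4 members lay below that median. For 23S rRNA 48 loci had a lower difference, for 4.5S rRNA 65 and for rpl2 162. None passed 1.5-fold as measured, where 0.726% of loci were higher and 0.469% lower, which is 65 and 42 loci, or 20 and 67 after subtraction of the median. Both rRNAs passed it once the median of all loci was subtracted, at -0.68 for 23S rRNA and only just, at -0.59, for 4.5S rRNA. With its highest base left out and no median subtracted, the difference of 4.5S rRNA was -0.34. No test of these differences was possible.

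Root and shoot were then compared within each treatment. The control roots enter both this comparison and the salt ratio of root, and the control shoots likewise, so the values are set side by side and not correlated. Without salt all 4 members had a higher mean in root than in shoot, while the median of all loci was -0.45 and 7.44% of loci lay above 0. The log2 ratio of root over shoot was 0.89 for 23S rRNA, or 1.86 times the shoot, and only 5 loci had a higher ratio. It was 0.59 for rpl2, with 38 loci higher, 0.44 for rps7 and 0.19 for 4.5S rRNA. The ratio of 4.5S rRNA was -0.42 by the highest base. Of the 4 members 2 were higher by 1.5-fold, 23S rRNA and rpl2, where 0.469% of all loci were higher and 25.3% lower. The ratio of rpl2 lay at the threshold and missed it with a pseudocount of 0.1 (0.47) and without the highest base (0.58). Over all loci 42 were higher and 2263 lower, or 433 and 180 after subtraction of the median. After subtraction of the median of all loci the 4 ratios became 1.35, 1.04, 0.90 and 0.64, all past 1.5-fold.

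Under salt the order of the members was different. The log2 ratio of salt root over salt shoot was 0.54 for rps7, 0.34 for 23S rRNA, 0.33 for rpl2 and -0.28 for 4.5S rRNA, beside a median of -0.32 over all loci. The mRNA of rps7 had 29 loci above it and 23S rRNA had 164. No member passed 1.5-fold, where 0.246% of all loci were higher and 9.51% lower, which is 22 and 851 loci, or 252 and 148 after subtraction of the median. With that subtraction 3 members passed it, all except 4.5S rRNA. The ratio of 4.5S rRNA lay below 0 and that of the other 3 above it, but it was 0.043 without the highest base and 0.045 after subtraction of the median. The authors' scaling of reactivities is unknown here, and a tissue difference in reactivity and one in scaling cannot be told apart.

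**Figure D3:**
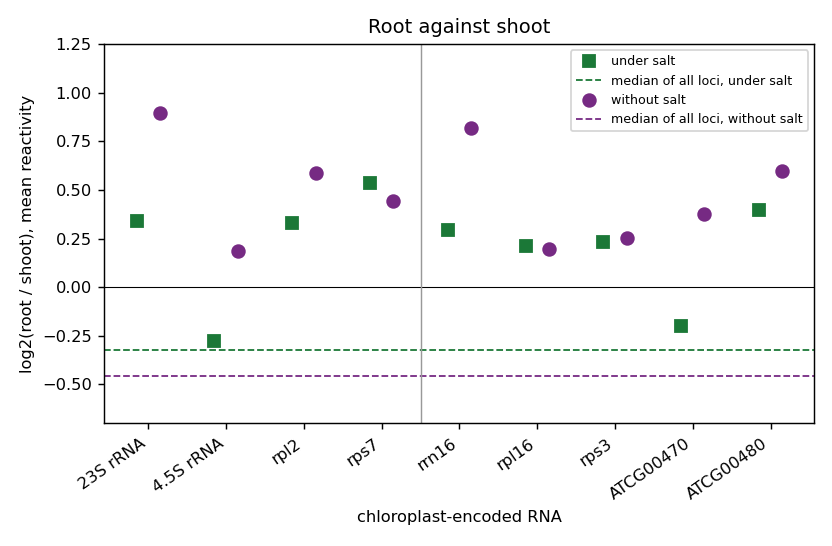
Log2 ratio of mean reactivity, root over shoot (y axis), for the chloroplast-encoded RNAs (x axis), under salt (squares) and without salt (circles). Dashed lines are the medians of all loci, -0.32 under salt and -0.45 without; the members, left of the vertical line, all lie above them.

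The spread of reactivity along each RNA was described by the Gini index, which is 0 for even reactivity and 1 for reactivity held by a single base. The index of 23S rRNA was 0.740 in salt roots and 0.710 in control roots, and 0.736 in salt shoots and 0.737 in control shoots. The index of 4.5S rRNA was 0.728 in salt roots and 0.727 in control roots, and 0.717 in salt shoots and 0.739 in control shoots. Both rRNAs stayed above the median of all loci, 0.678 to 0.690, and neither moved by more than 0.03 in any salt comparison. The index of rpl2 was 0.714 in salt roots and 0.672 in control roots, and 0.609 in salt shoots and 0.592 in control shoots. The index of rps7 was 0.719 in salt roots and 0.748 in control roots, and 0.663 in salt shoots and 0.633 in control shoots. The mRNAs thus had less even reactivity in roots than in shoots, by 0.105 for rpl2 and 0.056 for rps7 under salt, and by 0.080 for rpl2 and 0.115 for rps7 without salt. Over all loci the median root minus shoot difference was -0.0099 under salt and -0.0068 without. With salt, the index was higher by 0.042 in root and 0.017 in shoot for rpl2, while rps7 was at -0.029 in root and 0.030 in shoot. The median salt difference of all loci was 0.0081 in root and 0.0130 in shoot.

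**Figure D4:**
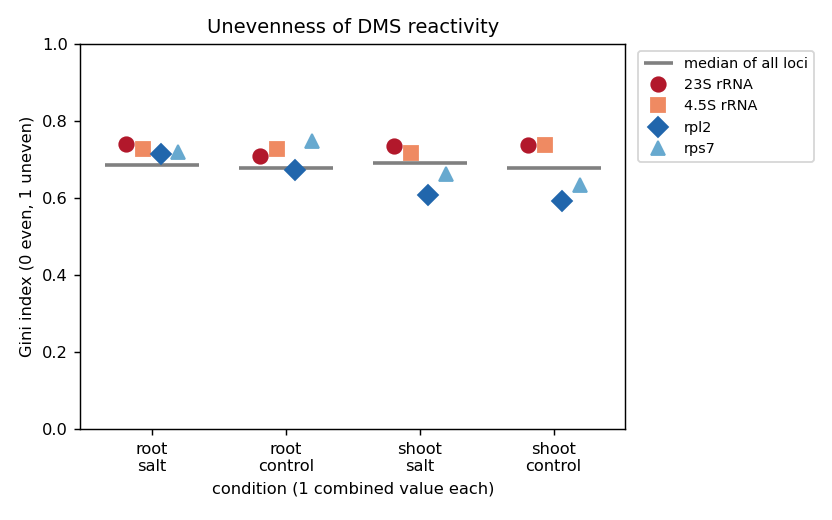
Gini index of reactivity along each RNA (y axis, 0 even, 1 uneven) for the members in the 4 conditions (x axis), 1 combined value each, with grey lines at the medians of all loci. The rRNAs lie between 0.710 and 0.740, and rpl2 and rps7 are lower in shoots than in roots.

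The most reactive base of an RNA was a further measure. For 23S rRNA it reached 2.42 in salt roots and 5.23 in control roots, and 2.50 in salt shoots and 2.44 in control shoots. In control roots 99.4% of loci had a lower highest base. For 4.5S rRNA it was 0.686 in salt roots and 1.48 in control roots, and 1.60 in salt shoots and 1.98 in control shoots. In salt roots only 1.27% of loci had a lower highest base than 4.5S rRNA. Among the mRNAs, rpl2 had 3.22 in salt roots and 3.11 in control roots, and 1.92 in salt shoots and 1.45 in control shoots. The values of rps7 were 2.70 in salt roots and 2.81 in control roots, and 1.76 in salt shoots and 1.35 in control shoots. In root the log2 ratio of salt over control for the highest base was -1.11 for each rRNA.

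The share of the summed reactivity held by that single base was small for the long RNAs and large for the short one. In 23S rRNA it lay between 0.672% and 0.916%, in rpl2 between 1.10% and 1.56% and in rps7 between 1.90% and 2.93%. In 4.5S rRNA it was 17.7% in salt roots and 19.6% in control roots, and 34.0% in salt shoots and 29.9% in control shoots. Without the highest base in each condition, a calculation chosen after the data were seen, the salt ratio of 4.5S rRNA was -0.93 in root and -0.59 in shoot, and its root over shoot ratio was 0.043 under salt and 0.38 without. The salt ratio of 23S rRNA was then -0.66 in root and -0.11 in shoot. The lower reactivity of both rRNAs in salt roots was therefore not held by 1 base. The standard deviation between bases gave log2 ratios in root of -0.98 for 4.5S rRNA, -0.55 for 23S rRNA, 0.20 for rpl2 and 0.15 for rps7.

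**Figure D5:**
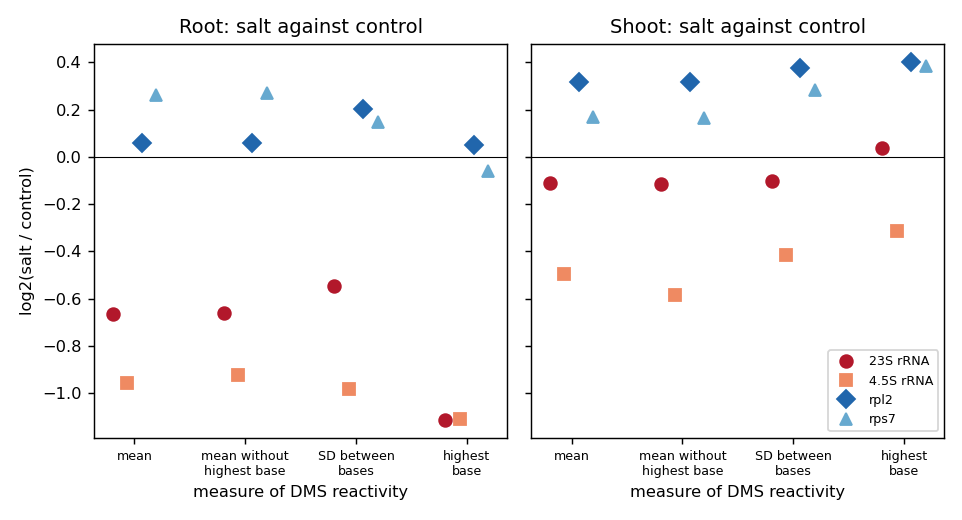
Log2 ratio of salt over control (y axis) for 4 measures of reactivity (x axis) in root (left panel) and shoot (right panel), 1 value per member and measure. In root the rRNAs lie between -0.55 and -1.11 and the mRNAs between -0.06 and 0.27; in shoot 23S rRNA is at 0.04 by the highest base and below 0 by the other measures.

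Other RNAs of the chloroplast genome give the nearest comparison. The table held 6 further loci with 5 distinct sets of values, among them rrn16, the 16S rRNA of the small subunit, present as 2 copies with the codes ATCG00920 and ATCG01210. The mean of rrn16 was 0.292 in salt roots and 0.404 in control roots, and 0.238 in salt shoots and 0.230 in control shoots. Its salt ratio was -0.47 in root and 0.05 in shoot, and its root over shoot ratio was 0.29 under salt and 0.82 without. The small-subunit rRNA thus had its highest value in control roots, as did 23S rRNA, 4.5S rRNA and the loci ATCG00470 (0.516) and ATCG00480 (0.534). The rrn16 salt ratio of the mean in root was closer to 0 than those of 23S and 4.5S rRNA. By contrast, the rrn16 salt ratio of the standard deviation between bases in root was -0.61, beside -0.55 for 23S rRNA. The mRNAs of rpl16 and rps3, which encode proteins of the large and small subunit, had salt ratios of 0.14 and 0.15 in root and 0.13 and 0.17 in shoot. Their root over shoot ratios were 0.21 and 0.23 under salt and 0.19 and 0.25 without, lower than those of rpl2 and rps7. The locus ATCG00470 had a salt ratio of -0.49 in root and 0.08 in shoot, and ATCG00480 had -0.05 in root and 0.15 in shoot. The root over shoot ratio of ATCG00470 was -0.20 under salt and 0.38 without, below those of rpl2 and rps7. That of ATCG00480 was 0.40 under salt and 0.60 without, above rpl2 in both treatments and above rps7 without salt. Over these 5 RNAs the median salt ratio was -0.05 in root and 0.13 in shoot.

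Most protein subunits of the chloroplast ribosome are encoded in the nucleus. Of 41 such genes listed, 37 were in the table. Their median mean reactivity was 0.535 in salt roots and 0.491 in control roots, and 0.396 in salt shoots and 0.370 in control shoots, an order of conditions that rpl2 and rps7 shared. Their median Gini index was 0.720 in salt roots and 0.718 in control roots, and 0.562 in salt shoots and 0.526 in control shoots. In shoot all 37 had a salt ratio above 0, with a median of 0.13, from 0.005 for PRPS1 and 0.009 for PRPL27 to 0.23 for PRPL19B and 0.26 for PSRP1, and none passed 1.5-fold. In root 26 were above 0 and 11 below, with a median of 0.08, near the 0.09 of all loci, and 16 lay above that median of all loci. Over all loci 80.1% lay above 0 in root and 37.3% in shoot. The root values of the 37 ran from -0.11 for PRPL12A and -0.08 for PRPL13 to 0.31 for PRPL19B and 0.32 for PRPS10. Both rRNAs lay below the lowest of these nuclear mRNAs in root and in shoot, and rpl2 lay above the highest in shoot.

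Between tissues without salt all 37 nuclear mRNAs were higher in root, where 7.44% of all loci were. The 37 had a median of 0.47, and 5 were past 1.5-fold, where 0.469% of all loci were. They ran from 0.05 for PRPL6 and 0.07 for PRPL31 to 0.64 for PRPL1 and 0.71 for PSRP2. Under salt 36 were higher in root, where 9.10% of all loci were. The median of the 37 was 0.39, and 3 were past 1.5-fold, where 0.246% of all loci were. The ratios ran from -0.08 for PRPL6 and 0.06 for PSRP1 to 0.61 for PRPL19A and 0.64 for PRPS10. The values of rpl2 and rps7 lay inside both ranges, and that of 23S rRNA lay above the range without salt. The 4.5S rRNA ratio lay inside the range without salt, at 0.19, and below the range under salt, at -0.28. For the root minus shoot difference of the salt ratio the nuclear mRNAs had a median of -0.03, from -0.23 for PRPS6 and -0.22 for PRPL1 to 0.15 for PRPS10 and 0.16 for PRPL19A. All members except rps7 lay below that range. A higher reactivity in root than in shoot was thus found in the nuclear mRNAs of the same ribosome as well.

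Genes for processing of chloroplast rRNA and assembly of its ribosome were listed next, and 8 of 13 were in the table. Their median salt ratio was 0.07 in root and 0.09 in shoot, with 7 above 0 and 1 below in each tissue. Over all loci 80.1% lay above 0 in root and 37.3% in shoot, with medians of 0.09 and -0.03. Around these medians the 8 genes split 4 above and 4 below in root, and 7 above and 1 below in shoot. In both tissues the lowest was RH3, a DEAD-box RNA helicase of chloroplast ribosome assembly, at -0.05. The highest were RH50, another chloroplast DEAD-box helicase, at 0.18 in root and PNP, the chloroplast polynucleotide phosphorylase that trims RNA 3′ ends, at 0.20 in shoot. Root over shoot ratios were above 0 for all 8, where 9.10% of all loci were under salt and 7.44% without. The 8 had a median of 0.27 under salt and 0.29 without. The highest was RNJ, the chloroplast ribonuclease J, at 0.42 under salt and 0.43 without. None of the 8 passed 1.5-fold in any comparison.

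The RNAs with the most similar pattern were sought by the Euclidean distance of log2 mean reactivity over the 4 conditions, after each locus was centred on its own mean, among 8945 loci. For 23S rRNA the nearest were both 16S rRNA copies, ATCG00920 and ATCG01210, at 0.19, followed by LP1, a lipid transfer protein gene, at 0.21. For 4.5S rRNA the nearest lay further away, KIN1 (AT5G15960), a cold- and drought-responsive gene, at 0.30, AT1G55710 at 0.36 and RBCS3B, a small subunit of Rubisco, at 0.38. For rpl2 the nearest were GSA2, an enzyme of tetrapyrrole synthesis, at 0.07, AT5G35170 at 0.07 and EMB3105 (AT1G48350), listed here as plastid ribosomal protein PRPL18, at 0.09. For rps7 they were AT1G67700 at 0.05, AT1G71695 at 0.06 and the plastid ribosomal protein gene RPL9 (AT3G44890) at 0.06. Between members the distance was 0.18 for rpl2 and rps7 and 0.74 for 23S and 4.5S rRNA. The distance from 4.5S rRNA was 1.05 to rpl2 and 1.12 to rps7. The distance from 23S rRNA was 0.62 to rpl2 and 0.70 to rps7, both shorter than to 4.5S rRNA. The member nearest to 4.5S rRNA was thus 23S rRNA, while the member nearest to 23S rRNA was rpl2. Distances over 4 conditions describe these combined values and carry no error.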

How the data were processed

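DMS reactivity was measured in shoots and roots of Arabidopsis with and without salt. Per the file headers, the deposited table gives, for each transcript and condition, the highest reactivity, the mean and the standard deviation between bases, scores on a scale set by the authors. It also gives the Gini index, a fraction per the file headers. Replicates had been combined before deposit. Not given in the sources used here are the aligner, the genome build, which bases were counted, the normalization and any filter on coverage, and depth is unknown.

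The lowest-numbered isoform of each locus was kept, giving 8956 loci of 12978 transcripts. Log2 ratios of mean reactivity were taken without pseudocount where the mean of both conditions reached 0.1, and ratios past 1.5-fold were treated as large. The 5 comparisons were salt against control in each tissue, root against shoot in each treatment, and the root minus shoot difference of the salt ratio. For that difference the mean over all 4 conditions had to reach 0.1, in place of the mean of both conditions. The number of bases was the smallest that made the sums implied by the mean, the standard deviation and the Gini index whole at 3 decimals in all conditions. It was found for 8955 loci. The scripts were tested on simulated data.

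The members and the 3 gene lists were chosen with earlier results of these data known. Named genes are the members, the other chloroplast-encoded loci, the 2 highest and 2 lowest of each nuclear list per comparison, and the 3 loci closest in pattern to each member; of the 8 rRNA processing genes only the extremes are named. Symbols came from the lists or, for 8893 loci, from the TAIR10.1 table, which matched 0 chloroplast codes, so members were named from the selection rule. Alternatives were other minimum and fold limits, a pseudocount of 0.1, centring on the median of all loci, all isoforms, and the other measures. Python 3.11.15, pandas 2.3.3, numpy 2.4.6 and matplotlib 3.10.9 were used.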

Additional observations from a re-analysis of the deposited data

Results flagged for a closer look

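In 3 chloroplast-encoded RNAs outside the members, mean reactivity was higher with salt in shoot and lower with salt in root. The root minus shoot difference of the log2 salt ratio was -0.58 for ATCG00470, -0.52 for rrn16 (ATCG00920 and its identical copy) and -0.20 for ATCG00480. Each tissue gave 1 combined value per treatment, so the difference was not tested. None of the 4 members went in opposite directions in the tissues.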

How the results depend on the processing

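No paired analysis was possible because the table gives a single combined value for each condition, and for the same reason no replicate could be left out. The 20 log2 ratios of the members were recomputed under alternatives, giving 136 values, of which 127 kept their direction. No minimum (20 values), a minimum of 0.2 (16) and loci in all 4 conditions (20) only select loci. Those values could not differ from the main result. The 9 that turned came from centring (3), the highest base (5) and the mean without the highest base (1). The lower reactivity of 23S and 4.5S rRNA in salt roots kept its direction under every alternative that gave a value. The cause of each difference below was not tested. With a pseudocount of 0.1 the ratio no longer reached 1.5-fold for 23S rRNA in root (salt over control, -0.51) and for rpl2 without salt (root over shoot, 0.47). Centring on the median of all loci turned the direction of rpl2 in root (-0.030), of 4.5S rRNA between tissues under salt (0.045) and of the rps7 tissue difference (-0.031). It brought past 1.5-fold, for root over shoot without salt, 4.5S rRNA (0.64) and rps7 (0.90), for root over shoot under salt 23S rRNA (0.66), rpl2 (0.65) and rps7 (0.86), and for the tissue difference 23S rRNA (-0.68) and 4.5S rRNA (-0.59). The highest base in place of the mean turned the direction of 23S rRNA in shoot (0.037), rps7 in root (-0.061), 4.5S rRNA between tissues without salt (-0.42), 23S rRNA between tissues under salt (-0.048) and the rps7 tissue difference (-0.45). It brought past 1.5-fold the root over shoot ratios of rps7 without salt (1.06) and of 4.5S rRNA (-1.22), rpl2 (0.74) and rps7 (0.62) under salt, and the tissue differences of 23S rRNA (-1.15) and 4.5S rRNA (-0.80). The mean without the highest base, an alternative chosen after seeing the data, brought 4.5S rRNA just past 1.5-fold for salt in shoot (-0.59), turned its direction for root over shoot under salt (0.043) and left rpl2 just under 1.5-fold for root over shoot without salt (0.58). A minimum of 0.2 left 4.5S rRNA out of every comparison except root over shoot without salt.

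When unevenness was measured by the standard deviation divided by the mean, the direction turned for the salt difference of 23S rRNA in shoot (0.013) and of 4.5S rRNA in root (-0.026) and shoot (0.109), for root minus shoot under salt of 23S rRNA (-0.097) and 4.5S rRNA (-0.405), and for the tissue difference of 4.5S rRNA (-0.135).

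The number of members past the threshold moved with these settings, and at a limit of 2-fold 0 members passed in any comparison. Counts over all loci moved more. Across the alternatives, looser and stricter fold limits included, the higher and lower counts ran from 1 to 235 and 5 to 94 for salt in root, 1 to 155 and 5 to 187 for salt in shoot, 4 to 452 and 103 to 4445 for root over shoot under salt, 5 to 456 and 180 to 6605 without salt, and 4 to 719 and 10 to 204 for the tissue difference. The limits are the single combined value per condition, the unknown depth and scaling, and the 31 bases behind 4.5S rRNA.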

Other observations

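The table also held 6 mitochondria-encoded loci, whose RNAs come from the other organelle with a genome of its own. Their median mean reactivity was 0.142 in salt roots and 0.142 in control roots, and 0.212 in salt shoots and 0.228 in control shoots, below the median of all loci in every condition. The log2 ratio of root over shoot was below 0 for all 6, with a median of -0.54 under salt and -0.62 without, and 3 were lower by 1.5-fold in each treatment, where 9.51% of all loci were under salt and 25.3% without. Most loci of the table were below 0 as well, with only 9.10% above it under salt and 7.44% without. Without salt the ratio of the mitochondria-encoded loci ran from -0.89 for ATMG00020 to -0.09 for ATMG00660, whereas all 9 distinct chloroplast-encoded RNAs lay above 0. The salt ratio of the mitochondria-encoded loci had a median of -0.04 in root, from -0.35 for ATMG00660 to 0.17 for ATMG01380, and of -0.11 in shoot, from -0.14 for ATMG00020 to 0.03 for ATMG01380. None passed 1.5-fold with salt in either tissue.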
